A study of Rattus norvegicus with 12 samples.

Results

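The genes described here were 10 antioxidant enzymes, most of them classic targets of the transcription factor Nrf2, measured in vascular endothelial cells (ECs) of the rat ductus arteriosus (DA) and aorta. Hmox1, Nqo1, Gclc, Gclm, Txnrd1, Srxn1, Sod1, Sod2, Sod3 and Cat were chosen by symbol, from the 14503 genes that had a probe set of their own symbol only among the 26468 probe sets of the array. Each had 1 such probe set, and all 10 passed the filter on dim probe sets. Wistar rat fetuses on day 21 of gestation (e21) were delivered by cesarean section, and the vessels were taken either before breathing (F group) or 30 minutes after birth (N group). The cells were sorted by FACS for CD31 and against CD45, from DA or aorta tissue pooled over many litters. RNA of 3 sorted sets per vessel and stage was hybridized to 12 Rat Gene 1.0 ST arrays, which gave the groups DA F, aorta F, DA N and aorta N. The study asked how the gene profiles of the 2 vessels differ at each stage. No genotype or drug distinguished the groups, and all animals shared the operative delivery. Each array stands for a pool and not for an animal, so that p-values measure the spread between pools, part of which may be technical.

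The DA is the fetal vessel that carries blood from the pulmonary artery to the aorta, and it constricts after birth when blood oxygen rises. Nrf2, encoded by Nfe2l2, is held in the cytoplasm by Keap1, which hands it to a Cul3 ubiquitin ligase. Oxidants and electrophiles modify Keap1 and free Nrf2, which then pairs with a small Maf protein on antioxidant response elements (AREs) of its target genes, where Bach1 can take its place as a repressor. The targets supply glutathione, reduce thioredoxin and quinones and degrade heme. The superoxide dismutases and catalase turn superoxide into hydrogen peroxide and hydrogen peroxide into water.

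The deposited values were log2 signals, with array medians between 5.63 and 5.76 and correlations between arrays of 0.954 to 0.995 across probe sets. Arrays with the same replicate number stood together for numbers 1 and 3, and not clearly for number 2. Deviations of same-numbered arrays from their group means correlated across probe sets at 0.539 to 0.82 for number 1. The range was 0.103 to 0.301 for number 2 and 0.393 to 0.735 for number 3, against -0.738 to 0.368 between different numbers. That of number 2 lay within the range between different numbers. Deviations from a group mean cancel out over the 3 arrays of a group. Positive values between same numbers therefore bring negative ones between different numbers by construction. The log2 signal of lys, a bacterial RNA added to each sample, lay between 4.53 and 6.17 on the arrays numbered 1, between 4.16 and 4.78 on those numbered 2 and between 3.41 and 3.53 on those numbered 3. The labels do not say what these numbers mark. Each comparison was therefore fitted with limma without the replicate number and with it as a block, and both results are given where a call differs. Hmox1 lay below the lys signal of its own array on 1 array (DA F replicate 1) and Srxn1 on 2 arrays (DA F replicate 1 and DA N replicate 1).

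In the DA, Hmox1, Gclc and Sod2 had lower signals than in the aorta, by 1.33-fold, 1.37-fold and 1.25-fold over both stages, and Nqo1 by 1.28-fold. The other 6 genes differed by less than that, with log2 fold changes between -0.18 (Srxn1) and 0.30 (Sod3). Without the block, limma called 0 of the 10 genes over both stages at an adjusted p under 0.05, where 8.12% of all probe sets tested were called. At an unadjusted p under 0.05 it had 4 of the 10 (Hmox1, Nqo1, Gclc and Sod2), against 18.2% of all probe sets. The methods' t-test had the same 4 unadjusted (20.7% of all probe sets) and 0 after Benjamini-Hochberg adjustment. Once the replicate number was fitted as a block, 3 of the 10 were called, Hmox1, Gclc and Sod2, all lower in the DA. The block raised the share of all probe sets called to 17.8% in either direction and 10.1% in the lower direction. At an unadjusted p under 0.05 the fit with the block had 5 of the 10, Hmox1, Nqo1, Gclc, Sod2 and Sod3, against 30.6% of all probe sets. The median log2 fold change of the 10 genes was -0.09, against -4e-04 for all probe sets tested.

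Within each stage, fewer of the genes passed with the block. In F, limma called 0 of the 10 genes without the block (3.77% of all probe sets) and, with it, 1, Gclc, which was lower (10.4% of all probe sets in either direction and 6.5% lower). At an unadjusted p under 0.05, Hmox1, Gclc and Sod2 passed in F without the block (13.2% of all probe sets) and with it (24.4%), and Gclc and Sod2 by the methods' t-test (11.9%). In N, it called 0 without the block (3.14% of all probe sets) and 0 with it (7.27%). Unadjusted, Hmox1 alone passed in N without the block (10.6% of all probe sets), Hmox1, Gclc and Sod2 with it (19.9%), and 0 genes by the methods' t-test (9.91%). Gclc and Sod2 were the members whose 3 DA arrays all lay below the 3 aorta arrays in F, which held for 10.9% of all probe sets. Hmox1 was the only such member in N (8.3% of all probe sets). Set against the aorta array of the same stage and number, Hmox1 and Gclc were lower in the DA in 6 of 6 pairs, a pattern shared by 12.8% of all probe sets.

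**Figure D1:**
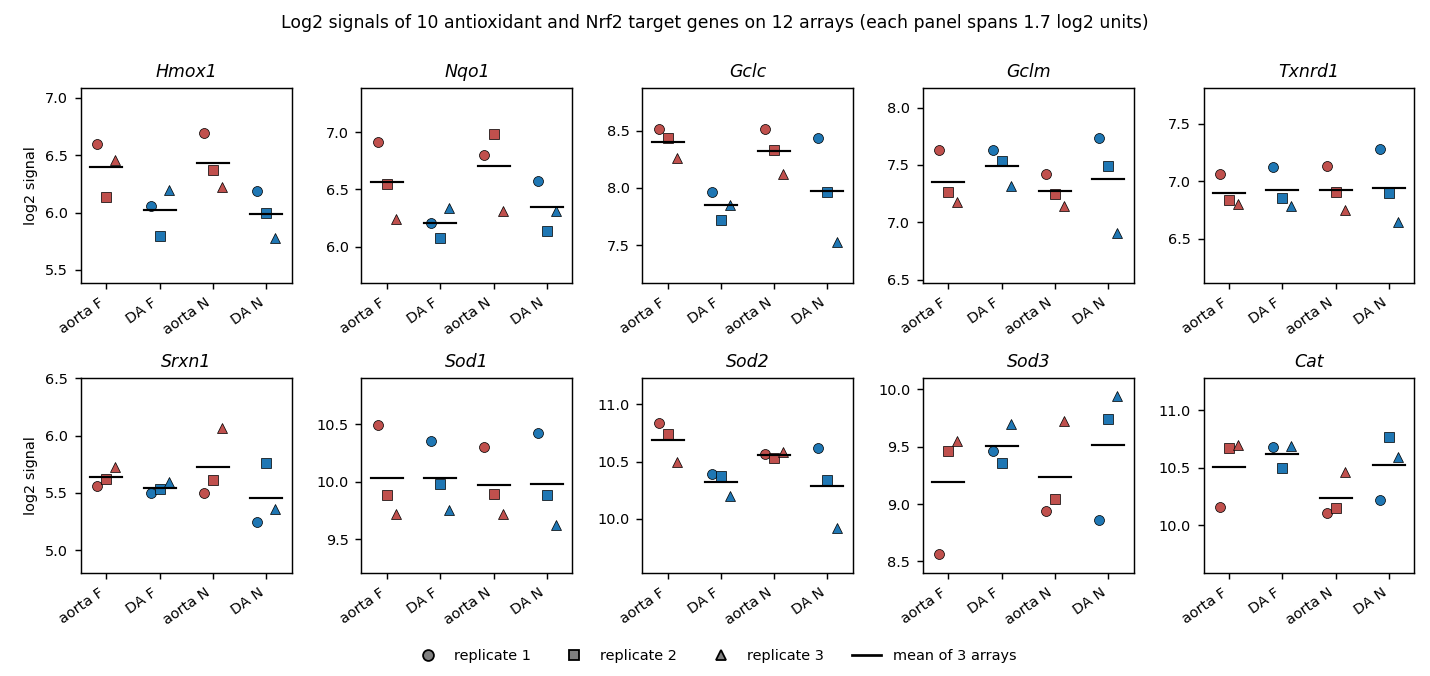
Log2 signal (y axis, 1 panel per gene, each spanning the same range) of the 10 genes on every array, by group (x axis), with red for the aorta, blue for the DA, a symbol for each replicate number and a line at the mean of 3 arrays. Hmox1 and Gclc lie lower in the DA groups, and Sod1 and Txnrd1 fall into levels by replicate number in all 4 groups.

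**Figure D2:**
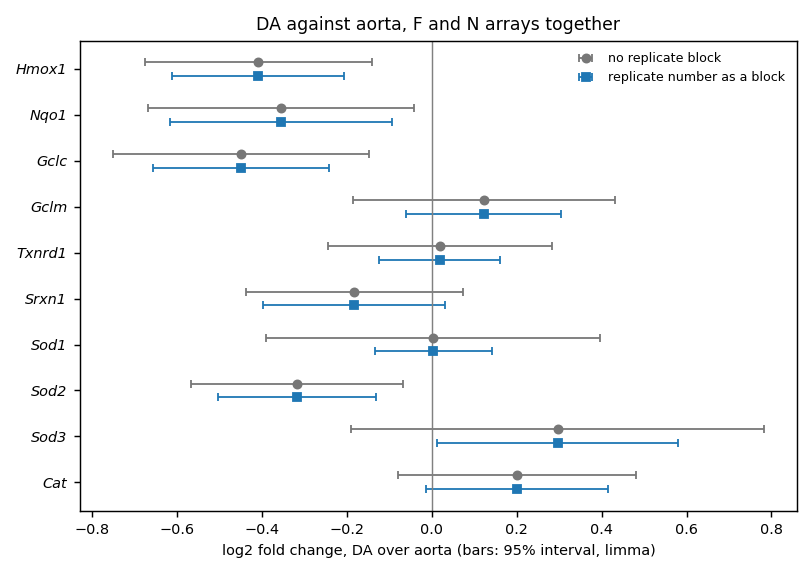
Log2 fold change of the DA over the aorta (x axis) for each gene, F and N arrays together, with 95% intervals from limma without a block (grey circles) and with the replicate number as a block (blue squares). The intervals of Hmox1, Nqo1, Gclc and Sod2 lie below 0 in both fits, that of Sod3 lies above 0 with the block only (0.01 to 0.58), and those of Sod1 and Txnrd1 are centred near 0.

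Hmox1 (probe set 10806122) encodes heme oxygenase 1, the inducible enzyme that opens heme into biliverdin, iron and carbon monoxide. Its log2 signal was 6.60, 6.14 and 6.46 in the aorta F arrays, 6.06, 5.80 and 6.20 in the DA F arrays, 6.69, 6.37 and 6.22 in the aorta N arrays and 6.19, 5.995 and 5.78 in the DA N arrays. The DA arrays were the lower ones at both stages, with 1 overlap in F, where aorta replicate 2 lay below DA replicate 3. The group means, from high to low, were 6.43 ± 0.24 in aorta N, 6.40 ± 0.23 in aorta F, 6.02 ± 0.20 in DA F and 5.99 ± 0.21 in DA N (SD, n = 3). Within a vessel, the stages lay closer to each other than the SD of either. Over both stages the log2 fold change was -0.41 (limma, SE 0.12, adjusted p = 0.0661 without the block and 0.0096 with it). The difference in the 6 same-numbered pairs ran from -0.53 to -0.26. With the block, Hmox1 stayed below the threshold when any 1 of the 12 arrays was left out (adjusted p 0.0019 to 0.0355). Without the block, it was called when aorta F replicate 2 (adjusted p = 0.0457) or DA N replicate 1 (adjusted p = 0.0470) was left out.

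Genes around heme did not move as one. Hmox2, the constitutive heme oxygenase, had a log2 fold change of 0.10 over both stages (adjusted p = 0.714; it was named after its values were seen). Fech, which inserts iron into protoporphyrin to complete heme, rose in the DA by 0.38 on the log2 scale (SE 0.10, adjusted p = 0.0332). It was the 1 gene called among 6 tested partners of heme and superoxide handling, and the DA values (6.84 to 7.24) lay above the highest aorta value of 6.86 except on DA F replicate 2 and DA N replicate 3. Hemoglobin and heme synthesis transcripts of red blood cells were not even between the groups. The summed signal of 5 erythroid markers was 435 to 611.8 in aorta F, 405.6 to 1149 in DA F, 408 to 505.8 in aorta N and 218.7 to 280 in DA N, so that DA N lay below every other group. Over both stages 0 of the 4 erythroid markers tested were called (Hbb, Hbb-b1 and Alas2 were the brightest). Hbb, the beta globin gene, was lower in the DA in N by a log2 fold change of -1.17 (adjusted p = 0.15, and 0.0390 with the block), while in F it had a log2 fold change of 0.27 (adjusted p = 0.878). The part of red blood cell RNA in the values of Hmox1 and Fech was not tested.

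Gclc (probe set 10911747) encodes the catalytic subunit of glutamate-cysteine ligase, the enzyme of the rate-limiting step of glutathione synthesis, and Gclm (probe set 10818793) encodes its modifier subunit. For Gclc, log2 signals were 8.51, 8.44 and 8.26 in aorta F, 7.97, 7.72 and 7.85 in DA F, 8.51, 8.33 and 8.12 in aorta N and 8.43, 7.97 and 7.53 in DA N. The F groups did not overlap, whereas DA N was spread widely, with replicate 1 close to its aorta counterpart. Its group means were 8.40 ± 0.13 in aorta F, 8.32 ± 0.20 in aorta N, 7.98 ± 0.45 in DA N and 7.85 ± 0.12 in DA F (SD, n = 3). Both aorta groups lay above both DA groups, and groups of the same vessel differed by less than the larger of their SDs. The log2 fold change was -0.55 in F (limma, SE 0.20, adjusted p = 0.195 without the block, and SE 0.13, adjusted p = 0.0214 with it) and -0.35 in N (adjusted p = 0.651 without the block and 0.168 with it). The value in N became -0.12 without DA N replicate 3 and -0.58 without DA N replicate 1. Over both stages it was -0.45 (SE 0.14, adjusted p = 0.0750 without the block, and SE 0.09, adjusted p = 0.0061 with it).

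For Gclc over both stages, the call made with the block held when any 1 of the 12 arrays was left out (adjusted p 0.0018 to 0.0208). The call with the block in F ended when aorta F replicate 2, aorta F replicate 3, DA F replicate 1 or DA F replicate 2 was left out (adjusted p 0.0846 to 0.0955). Without the block and without DA N replicate 1, Gclc passed (adjusted p = 0.0088). Gclm, the partner subunit, had a different pattern. Its log2 signals were 7.63, 7.26 and 7.17 in aorta F, 7.63, 7.53 and 7.32 in DA F, 7.42, 7.25 and 7.14 in aorta N and 7.74, 7.49 and 6.90 in DA N. All groups overlapped, and the array numbered 1 was the highest in each of the 4 groups. The Gclm log2 fold change over both stages was 0.12 (95% interval -0.19 to 0.43, limma adjusted p = 0.780, and -0.06 to 0.30 with the block), and the DA value was the higher one in 4 of 6 same-numbered pairs. With 1 array left out of the fit without the block, the Gclm value ran from 0.03 to 0.24. The difference between the responses of the 2 subunits was not tested.

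RefSeq promoter windows on the build GRCr8, from 250 bases before to 50 bases after the transcription start, were at hand for 8 of the 10 genes. Hmox1 and Sod3 had none. Txnrd1 had 2 windows, which made 9 in all. The genes start on chromosomes 19 (Nqo1), 8 (Gclc), 2 (Gclm), 7 (Txnrd1), 3 (Srxn1 and Cat), 11 (Sod1) and 1 (Sod2). Each window was searched on both strands for the core of the ARE, TGACNNNGC, and for the AP-1 element, TGACTCA or TGAGTCA. The letters of the 2 motifs can overlap, since an ARE core may begin with an AP-1 element. An ARE core was found in 12.06% of the 33469 rat windows and an AP-1 element in 4.63%. Of the member genes, Gclm, Txnrd1 and Sod2 held 1 ARE core each, and Srxn1 held 2 AP-1 elements. The windows of Gclc and Sod2, the genes called with the block for which a window exists, are shown with those of Gclm and Txnrd1. Sod2 held the core and Gclc did not. Gclm and Txnrd1 were not called and are the uncalled genes whose windows held a core. The windows of Nqo1, Srxn1, Sod1 and Cat, also not called, held none, nor did the other window of Txnrd1. Capitals mark the ARE core, which in all 3 cases reads TGACNNNGC on the strand opposite to the one printed.
Gclc (GRCr8, chr8:87510226-87510525, plus strand): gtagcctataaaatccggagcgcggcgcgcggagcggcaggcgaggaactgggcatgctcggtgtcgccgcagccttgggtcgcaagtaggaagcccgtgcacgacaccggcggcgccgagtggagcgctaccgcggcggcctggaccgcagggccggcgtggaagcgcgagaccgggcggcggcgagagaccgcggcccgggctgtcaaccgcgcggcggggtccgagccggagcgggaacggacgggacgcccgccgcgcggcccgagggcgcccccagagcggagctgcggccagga
Sod2 (GRCr8, chr1:50050119-50050418, minus strand): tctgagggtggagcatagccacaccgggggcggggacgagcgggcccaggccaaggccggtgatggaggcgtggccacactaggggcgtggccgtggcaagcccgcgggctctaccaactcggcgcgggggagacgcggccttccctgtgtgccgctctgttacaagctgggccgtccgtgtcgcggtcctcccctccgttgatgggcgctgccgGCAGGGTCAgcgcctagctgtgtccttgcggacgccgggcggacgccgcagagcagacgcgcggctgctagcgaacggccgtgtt
Gclm (GRCr8, chr2:213031885-213032184, plus strand): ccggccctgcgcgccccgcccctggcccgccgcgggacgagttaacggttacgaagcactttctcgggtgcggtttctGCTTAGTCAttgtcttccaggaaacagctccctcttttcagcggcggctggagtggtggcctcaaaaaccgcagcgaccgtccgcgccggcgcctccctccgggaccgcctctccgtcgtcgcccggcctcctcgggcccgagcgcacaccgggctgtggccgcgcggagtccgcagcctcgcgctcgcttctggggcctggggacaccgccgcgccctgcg
Txnrd1 (GRCr8, chr7:22755855-22756154, minus strand): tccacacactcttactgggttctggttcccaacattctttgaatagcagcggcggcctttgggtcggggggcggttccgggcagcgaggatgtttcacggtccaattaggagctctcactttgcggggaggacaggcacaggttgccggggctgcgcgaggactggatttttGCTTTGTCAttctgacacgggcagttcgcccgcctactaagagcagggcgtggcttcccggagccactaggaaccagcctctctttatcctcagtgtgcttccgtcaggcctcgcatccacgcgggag
Counted with the first transcribed base as 1, the core in Gclm spanned positions -172 to -164 and read TGACTAAGC. That in Txnrd1 spanned -78 to -70 and read TGACAAAGC, and that in Sod2 spanned -35 to -27 and read TGACCCTGC. A match describes these letters, and its absence from the Gclc window covers only those 300 bases.

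Other genes of glutathione metabolism were more often higher in the DA. Of the 18 tested of a list of 22, limma called 6 higher and 1 lower over both stages, where 3.19% of all probe sets were called higher and 4.93% lower. With the block, 8 were higher and 1 lower (background 7.71% and 10.1%). The median log2 fold change of the list was 0.25. Gpx1, the cytosolic glutathione peroxidase, had log2 signals of 8.06, 8.22 and 8.21 in aorta F, 8.59, 8.53 and 8.50 in DA F, 8.15, 8.25 and 8.13 in aorta N and 8.54, 8.63 and 8.44 in DA N. The log2 fold change was 0.37 (SE 0.07, adjusted p = 0.0076). Gstm2 and Gstp1, which conjugate glutathione to electrophiles, rose by log2 fold changes of 0.73 (SE 0.14, adjusted p = 0.0047) and 0.47 (SE 0.10, adjusted p = 0.0111). Gstm2 has close paralogs, among them Gstm1 of the same list, whose probes may bind both transcripts. Ggt5, which cleaves glutathione conjugates outside the cell, fell in the DA by 0.49 on the log2 scale (SE 0.08, adjusted p = 0.0014), from 8.97 to 9.22 in the aorta to 8.49 to 8.69 in the DA. The remaining higher genes were Gpx8, Mgst1 and Gstm1, named because they complete the count, with adjusted p between 0.0199 and 0.0277. Gclc was called lower with the block only, in the fit where 8 genes of the list were higher and 1 lower. Without the block, leaving out DA F replicate 1 reduced the 6 higher calls to 3.

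Nqo1 (probe set 10810867) encodes the NAD(P)H quinone reductase that keeps quinones out of redox cycling. It had log2 signals of 6.91, 6.54 and 6.24 in aorta F, 6.21, 6.08 and 6.34 in DA F, 6.80, 6.99 and 6.31 in aorta N and 6.58, 6.14 and 6.32 in DA N. The arrays numbered 1 and 2 were lower in the DA at both stages, while those numbered 3 were close to each other, so that 4 of 6 pairs were lower. Group means were 6.70 ± 0.35 in aorta N, 6.57 ± 0.34 in aorta F, 6.34 ± 0.22 in DA N and 6.21 ± 0.13 in DA F (SD, n = 3), with no gap between neighbours larger than the SD of the aorta groups. The log2 fold change over both stages was -0.36 (limma, SE 0.14, adjusted p = 0.197 without the block and 0.0614 with it). With the block it passed when DA F replicate 3 (adjusted p = 0.0146) or aorta N replicate 3 (adjusted p = 0.0328) was left out.

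Txnrd1 (probe set 10901413) encodes the cytosolic thioredoxin reductase. Its log2 signals were 7.07, 6.83 and 6.80 in aorta F, 7.13, 6.86 and 6.79 in DA F, 7.13, 6.90 and 6.75 in aorta N and 7.28, 6.90 and 6.65 in DA N. The 4 groups repeated the same 3 levels, and their means lay between 6.90 and 6.94. Between the vessels the log2 fold change was 0.02 (95% interval -0.12 to 0.16 with the block, limma adjusted p = 0.889). Srxn1 (probe set 10840791) encodes sulfiredoxin, which restores overoxidized peroxiredoxins. Log2 signals of Srxn1 were 5.56, 5.62 and 5.73 in aorta F, 5.50, 5.53 and 5.59 in DA F, 5.50, 5.61 and 6.07 in aorta N and 5.24, 5.76 and 5.36 in DA N. The vessels overlapped at both stages, and aorta N replicate 3 was the highest array. Srxn1 was lower in the DA in 5 of 6 pairs, with a log2 fold change of -0.18 (limma, SE 0.12, adjusted p = 0.492 without the block and 0.236 with it) that ran from -0.26 to -0.10 with 1 array left out of the fit without the block. Among 16 tested thioredoxin, peroxiredoxin and related genes, 0 were called over both stages without the block. With it, Prdx2, a cytosolic peroxiredoxin, was called higher in the DA (log2 fold change 0.31, adjusted p = 0.0765 without the block and 0.0144 with it).

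Sod2 (probe set 10717935) encodes the manganese superoxide dismutase of mitochondria. Its log2 signals were 10.84, 10.74 and 10.49 in aorta F, 10.39, 10.37 and 10.20 in DA F, 10.56, 10.53 and 10.58 in aorta N and 10.61, 10.34 and 9.92 in DA N. In F the vessels did not overlap. In N the aorta arrays lay close together, and DA replicate 1 lay above all of them. The mean was 10.69 ± 0.18 in aorta F, 10.56 ± 0.02 in aorta N, 10.32 ± 0.10 in DA F and 10.29 ± 0.35 in DA N (SD, n = 3). Over both stages the log2 fold change was -0.32 (limma, SE 0.12, adjusted p = 0.139 without the block, and SE 0.08, adjusted p = 0.0223 with it), and 5 of 6 pairs were lower in the DA. The call made with the block ended when aorta F replicate 1, aorta F replicate 2, DA F replicate 1, aorta N replicate 3, DA N replicate 2 or DA N replicate 3 was left out (adjusted p 0.0512 to 0.0617). Without the block, leaving out DA N replicate 1 brought Sod2 under the threshold (adjusted p = 0.0364).

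Sod1 (probe set 10753005) encodes the copper-zinc superoxide dismutase of the cytosol. Log2 signals were 10.49, 9.88 and 9.72 in aorta F, 10.35, 9.98 and 9.76 in DA F, 10.31, 9.90 and 9.72 in aorta N and 10.43, 9.88 and 9.62 in DA N. The same 3 levels returned in every group, and DA and aorta arrays of the same number differed by -0.14 to 0.12. The log2 fold change between the vessels was 0.00 (95% interval -0.14 to 0.14 with the block, and -0.39 to 0.40 without it).

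Sod3 (probe set 10777108) encodes the secreted superoxide dismutase of the extracellular space. Its log2 signals were 8.56, 9.46 and 9.55 in aorta F, 9.46, 9.36 and 9.70 in DA F, 8.94, 9.05 and 9.73 in aorta N and 8.86, 9.74 and 9.94 in DA N. The groups overlapped widely, with the array numbered 1 the lowest in 3 of the 4 groups, DA F being the exception. The log2 fold change over both stages was 0.30 and did not pass (limma, SE 0.22, adjusted p = 0.593 without the block, and SE 0.13, adjusted p = 0.148, unadjusted p = 0.0428 with it). It became 0.14 without aorta F replicate 1, 0.19 without DA N replicate 3 and 0.46 without DA N replicate 1. Cat (probe set 10838155) encodes catalase, the peroxisomal enzyme that splits hydrogen peroxide. For Cat, log2 signals were 10.16, 10.67 and 10.70 in aorta F, 10.68, 10.50 and 10.69 in DA F, 10.10, 10.15 and 10.46 in aorta N and 10.22, 10.77 and 10.59 in DA N. The vessels overlapped at both stages, and aorta N was the lowest group on average (10.24 ± 0.20, SD, n = 3). The log2 fold change between the vessels was 0.20 (SE 0.13, adjusted p = 0.497 without the block and 0.196 with it), or 0.11 to 0.28 with 1 array left out of the fit without the block. Sod3 and Cat were each higher in the DA in 4 of 6 pairs.

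Between the F and the N groups, none of the 10 genes passed the test in either vessel. Over both vessels, the log2 fold changes of N against F lay between -0.18 (Cat) and 0.13 (Nqo1), and those of Hmox1 and Srxn1 were within 0.001 of 0. In the DA they lay between -0.12 (Gclm) and 0.13 (Nqo1) and in the aorta between -0.27 (Cat) and 0.13 (Nqo1). Limma called 0 of the 10 in the DA (0.00535% of all probe sets without the block and 0.0535% with it), 0 in the aorta (0% and 0.0161%) and 0 over both vessels (0.0107% and 0.123%). The count at an unadjusted p under 0.05 was also 0 in all 3 comparisons, by limma in both fits and by the methods' t-test. Of all probe sets, that threshold took 2.01% in the DA, 1.38% in the aorta and 2.56% over both vessels without the block, 7.32%, 4.4% and 7.36% with it, and 2.27%, 2.04% and 1.93% by the methods' t-test. Taken over both vessels, the 95% intervals of the 10 genes reached from -0.46 to 0.51 without the block and from -0.40 to 0.40 with it. The narrowest with the block were those of Sod1, -0.19 to 0.08, and Txnrd1, -0.12 to 0.17. An interaction test, of the DA to aorta difference in N against that in F, passed for none of the members (limma, 0 of 10 called with or without the block, and 0% of all probe sets called in either fit). At an unadjusted p under 0.05 it had 0 of the 10 too, against 0.931% of all probe sets without the block and 4.1% with it. The largest such difference was that of Gclc, 0.21 (SE 0.28), the fold change being smaller in N.

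**Figure D3:**
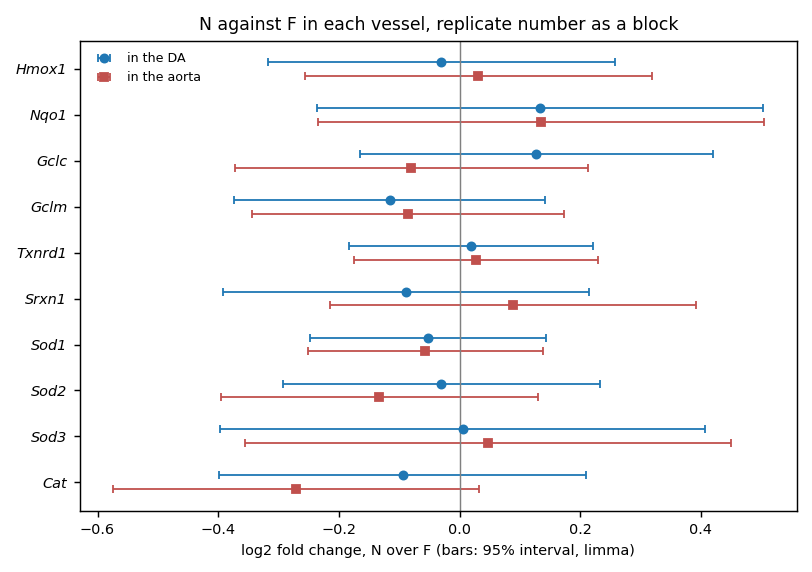
Log2 fold change of N over F (x axis) for each gene in the DA (blue circles) and in the aorta (red squares), with 95% intervals from limma with the replicate number as a block. All 20 intervals include 0, and the lowest value is that of Cat in the aorta, -0.27.

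Of all 78 tested genes on the pathway lists, 0 were called between the stages over both vessels without the block and 1 with it (0.0107% and 0.123% of all probe sets). That gene was Txnip, which encodes the inhibitor of thioredoxin, and it is named because it was the one that passed. Txnip had log2 signals of 10.12, 10.23 and 10.02 in aorta F, 9.82, 9.88 and 9.79 in DA F, 10.59, 10.71 and 10.46 in aorta N and 10.40, 10.73 and 10.37 in DA N. The log2 fold change of N against F over both vessels was 0.57 (limma, SE 0.09, adjusted p = 0.108 without the block, and SE 0.06, adjusted p = 0.0046 with it). It was 0.67 in the DA (not called without the block, adjusted p = 0.0239 with it) and 0.47 in the aorta (adjusted p = 0.266 with the block). The difference between the vessels did not pass (adjusted p = 0.999 with the block). Txnrd1, which reduces the thioredoxin that Txnip binds, changed by 0.02 over the same arrays.

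The replicate number accounted for more of the spread of several members than vessel and stage together. Of the sum of squares of Sod1 over the 12 arrays, 96.4% lay between replicate numbers, against 0.86% between the stages. Only 10 of the 18690 probe sets tested, Sod1 included, had as high a share (0.0535%). For Sod1, the arrays numbered 1 read 10.31 to 10.49, those numbered 2 read 9.88 to 9.98 and those numbered 3 read 9.62 to 9.76, without overlap. The share was 89.2% for Txnrd1 (matched or exceeded by 1.69% of probe sets), 68.1% for Gclm and 61.7% for Sod3, and between 20.5% and 32.0% for the other 6. The median over all probe sets was 41.4%. Sod3 ran the opposite way to Sod1, with a mean of 8.96 on the arrays numbered 1 and 9.73 on those numbered 3. The vessel took the largest share for Hmox1 (56.0%), Gclc (51.1%) and Sod2 (46.1%), where its median over all probe sets was 8.19%. The lys signal moved with the numbers in the same order as Sod1, and its part in these values was not tested.

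**Figure D4:**
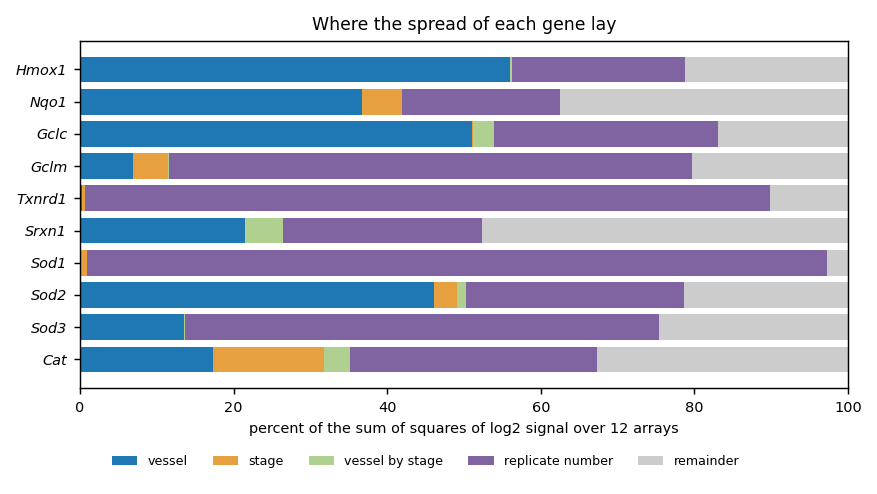
Percent of the sum of squares of log2 signal over 12 arrays (x axis) that lay between vessels, between stages, in their interaction, between replicate numbers and in the remainder, for each gene. Replicate number fills 96.4% of the bar of Sod1 and 89.2% of that of Txnrd1, while the vessel fills 56.0% of that of Hmox1.

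The regulators of the pathway were on the low side in the DA. Of 12 regulators of Nrf2, all tested, limma called 3 lower and 0 higher over both stages, and 6 lower with the block (4.93% and 10.1% of all probe sets were lower). 11 of 12 had a log2 fold change below 0, as had 9359 of the 18690 probe sets tested, and the median was -0.25. Nfe2l2, which encodes Nrf2, had log2 signals of 10.49, 10.19 and 10.03 in aorta F, 9.93, 9.68 and 9.21 in DA F, 10.31, 10.20 and 9.79 in aorta N and 9.95, 9.77 and 9.43 in DA N. In F the DA arrays all lay below the aorta arrays (10.9% of all probe sets), and in N each DA array lay below its aorta counterpart. The log2 fold change of Nfe2l2 was -0.51 (SE 0.15, adjusted p = 0.0606 without the block and 0.00019 with it). Maff, a small Maf partner, fell in the DA by 0.62 on the log2 scale (SE 0.12, adjusted p = 0.0043), from 7.51 to 8.05 in the aorta to 6.86 to 7.41 in the DA. Sqstm1, the autophagy receptor that can sequester Keap1, fell by 0.28 (SE 0.08, adjusted p = 0.0462). Bach1, the repressor of Hmox1, fell by 0.31 (SE 0.09, adjusted p = 0.0485). Keap1 itself had a log2 fold change of -0.14 (adjusted p = 0.757 without the block and 0.230 with it). The genes called lower without the block were thus Maff, Sqstm1 and Bach1. Nfe2l2, Bach2 and Mafk joined them with the block (adjusted p = 0.0229 for Bach2 and 0.0090 for Mafk). The count of 3 dropped to 1 when aorta F replicate 2, DA F replicate 2 or 3, aorta N replicate 1 or 2, or DA N replicate 2 or 3 was left out.

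Other targets of Nrf2 went both ways. Of 17 tested, 2 were called higher and 2 lower over both stages, with a median of -0.01 (3.19% and 4.93% of all probe sets), and with the block 4 and 2 (7.71% and 10.1%). Me1, the cytosolic malic enzyme that makes NADPH, rose in the DA from 6.72 to 7.28 in the aorta to 7.57 to 8.01 (log2 fold change 0.78, SE 0.11, adjusted p = 0.00047). Akr1b8, an aldo-keto reductase and the other one called higher, passed the filter on dim probe sets through the DA, where its mean was 4.84. Its aorta mean of 4.41 lay below that of lys, 4.44, so that no fold is given. The call of Akr1b8 is in the counts of both fits and is not read as a result. Abcc4, an exporter of organic anions, fell by 1.19 (SE 0.11, adjusted p = 2e-05), and Ephx1, the microsomal epoxide hydrolase, by 0.60 (SE 0.11, adjusted p = 0.0043). Me1 and Ephx1 both held an ARE core in their promoter windows and moved in opposite directions.

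Enzymes that produce oxidants were mostly without a call. Of 9 tested, 2 were called lower and 0 higher over both stages (4.93% and 3.19% of all probe sets), and 3 and 1 with the block (10.1% and 7.71%), which added Maoa and Rac2. Maob, a mitochondrial monoamine oxidase that releases hydrogen peroxide, fell by 1.39 on the log2 scale (SE 0.14, adjusted p = 4.6e-05), from 7.09 to 7.65 in the aorta to 5.63 to 6.36 in the DA. Aox1, an aldehyde oxidase and the other one called lower, passed the filter through the aorta, where its mean was 5.12. All 6 DA arrays lay below the mean of lys, so that no fold is given. The call of Aox1 is in the counts of both fits and is not read as a result. Nox4, an NADPH oxidase that releases hydrogen peroxide, had a log2 fold change of 0.12 (adjusted p = 0.616; it was named after its values were seen). Over all 6 pathway lists, 78 of 91 genes were tested, and 9 rose, 8 fell and 61 did not pass in the DA over both stages (8.12% of all probe sets passed). With the block, 15 rose and 12 fell (17.8%). The counts of both fits include Akr1b8 among the genes that rose and Aox1 among those that fell. Each of them passed the filter only through the vessel where it was the higher.

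**Figure D5:**
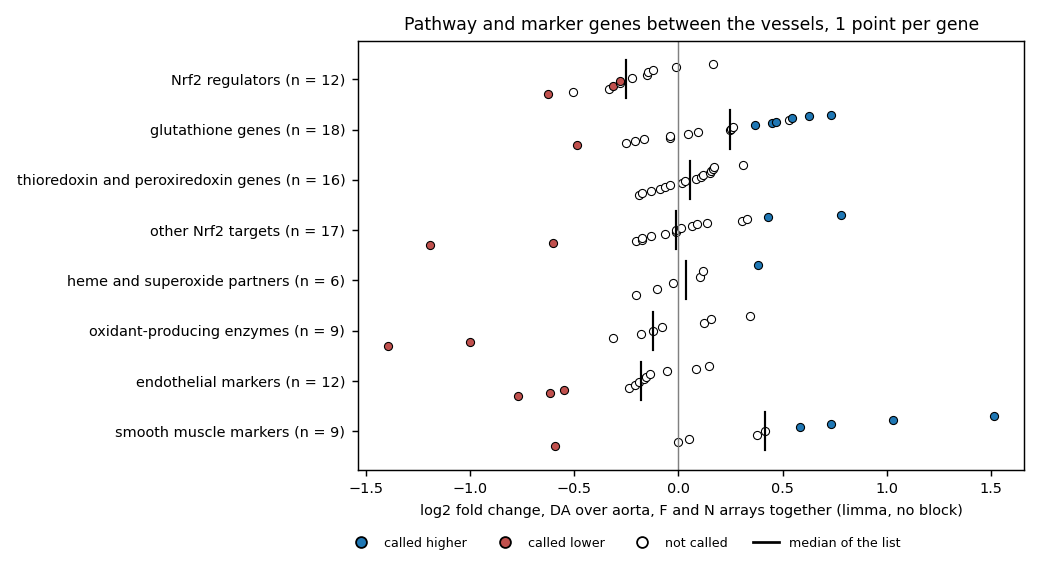
Log2 fold change of the DA over the aorta (x axis), F and N arrays together, for every tested gene of the 6 pathway lists and of the endothelial and smooth muscle markers (1 row per list), with filled points for genes called by limma without the block and a bar at each list's median. Glutathione genes have 6 points called higher, and Nrf2 regulators have 3 points called lower. Aox1 and Akr1b8 are plotted although 1 vessel mean of each lies below that of the lys spike.

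Markers of cell types differed between the vessels too, and values in bulk RNA cannot tell fewer cells of a type from less RNA per cell. The defining endothelial markers were present, with mean log2 signals of 12.10 for Pecam1 (CD31), 11.84 for Tie1 and 11.64 for Esam. Against 3.19% of all probe sets called higher and 4.93% lower (7.71% and 10.1% with the block), 3 of 12 endothelial markers tested were called lower in the DA and 0 higher, and 4 and 0 with the block. Their summed signal was 23390 to 25540 in aorta F, 24250 to 25590 in aorta N, 20960 to 22270 in DA F and 21110 to 22580 in DA N. The sums did not overlap between the vessels. Of 9 smooth muscle markers, 4 were called higher and 1 lower, and 6 and 1 with the block, with sums of 2235 to 2642 in aorta F, 2408 to 2683 in aorta N, 3298 to 3460 in DA F and 3388 to 4329 in DA N. Acta2, smooth muscle actin, rose by 0.58 (adjusted p = 0.0036), Smtn, smoothelin, had a log2 fold change of 0.00 (adjusted p = 0.997), and Myocd, the smooth muscle coactivator myocardin, fell by 0.59 (adjusted p = 0.0048). Of the 9, 7 had a log2 fold change above 0 and 2 below, with a median of 0.42. Actg2 and Tagln, named after their values were seen, had higher means in the DA at both stages. From aorta to DA, Actg2 went from 6.79 to 8.25 in F and from 6.93 to 8.50 in N. Tagln went from 7.03 to 7.99 in F and from 7.19 to 8.28 in N. The fibroblast sums overlapped (6502 to 8617 over all groups). Of 7 fibroblast markers tested, Col1a1 was called lower (-0.48) and Col1a2 higher (0.30), while Postn was not called (0.15), and with the block 4 were higher and 1 lower. Leukocyte markers (Cd68, C1qb and Fcer1g the brightest) had 0 of 5 tested called without the block and 1, Cd68, called lower with it. Mesothelial markers (Msln, Krt19 and Wt1) had 1 of 3 called higher, Msln, and with the block also 1 lower, Krt19. The endothelial and smooth muscle sums moved with the vessel alongside Hmox1, Gclc, Sod2 and genes of the lists. The part of these or other cell types in the differences of those genes was not tested.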

How the data were processed

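Sorted ECs of the DA and aorta of F and N rats were profiled on 12 arrays (Rat Gene 1.0 ST), 3 in each group. The deposited values were log2 signals, 1 per probe set, which the authors had summarised and normalized by a method not given in the sources used here. They were used as deposited, and the number of arrays limits their precision.

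Gene symbols came from the platform annotation, updated through RefSeq identifiers. Of 26468 probe sets, 15307 had 1 symbol, 323 several and 10838 none. A gene was read from its brightest probe set of that symbol only. The fit took the 18690 probe sets whose mean was at least the mean of the lys spike (4.44), and 7778 were left out. limma 3.58.1 in R 4.3.3 was fitted with 1 mean per group over all 12 arrays, with contrasts between the vessels (within F, within N, and averaged), between the stages (within the DA, within the aorta, and averaged), and for their interaction. A call was an adjusted p under 0.05 (Benjamini-Hochberg over all probe sets tested), two-sided, and list genes were counted from the same fit. The shares of all probe sets are over the 18690 tested, of which 11899 had 1 symbol. They therefore include probe sets of a kind that the gene lists do not hold. Shares over probe sets with 1 symbol alone were not counted. The fit without the block was tested on simulated data that held no effect of the replicate number. The fit with the block was not tested in this way. The methods' t-test is Student's test on the same values. 14 genes on the lists had no probe set of their own and were not analysed here.

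Every pair of arrays with the same replicate number had deviations that correlated above 0.1 (values in the report), so the numbers were treated as pairing and also fitted as a block. Pairs with different numbers reached up to 0.368, so that this limit does not by itself show pairing. The block rests on the data, since the labels do not say what the numbers mark. The named genes were the 10 members, Nfe2l2, Keap1, Bach1, from each pathway list up to 4 genes called over both stages by lowest adjusted p, and from each cell type list the 3 brightest. The rule would also have named the genes most like each member called without the block, of which there were 0. Others are said to have been named after their values were seen or because they complete a count. The members and lists were chosen with earlier results of these data known. Alternatives covered normalization, the filter, the variance prior, array weights, the t-test and arrays left out. Promoter windows and their letters came from RefSeq (GRCr8). No genome was used, and no protein sequences.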

Additional observations from a re-analysis of the deposited data

How the results depend on the processing

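With 3 arrays per group, the count of the 10 genes called depended on how the spread was modelled. Over both stages it was 0 as reported, 2 after quantile normalization (Hmox1 and Gclc), 3 with the replicate block, 4 with array weights (Nqo1 in addition) and 0 to 3 with 1 array left out. Without the 4 arrays numbered 1 it was 1 (Gclc). In F it was 1 (Gclc) with the replicate block and 1 with array weights, and in N it was 5 with array weights (Hmox1, Gclc and Nqo1 lower, Sod3 and Cat higher), where the weight of DA N replicate 2 was 6.18 and that of DA N replicate 1 was 0.425. With the replicate block and 1 array left out, the counts were 0 to 2 in F, 0 to 1 in N and 2 to 4 over both stages. The replicate block called no member between N and F. The cause of these shifts was not tested, other than that leaving out arrays leaves fewer of them. For quantile normalization, array weights and left-out arrays, the share of all probe sets called was not counted. Their counts, here and below, are therefore not read as a result about these genes.

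Glutathione genes called higher over both stages numbered 6 as reported and 0 by the methods' t-test with a fold of at least 2, 3 to 6 with 1 array left out, and 3, 0 and 1 without the 4 arrays numbered 1, 2 and 3. Nrf2 regulators called lower numbered 3 as reported, 1 with no filter on dim probe sets, 6 with the replicate block, 7 with array weights, 0 by the methods' t-test with a fold of at least 2, 1 to 3 with 1 array left out, 0 and 1 without the arrays numbered 2 and 3, and 5 to 7 with the replicate block and 1 array left out. The alternatives without numbered sets of arrays, those with the block and an array left out, and all those for these list counts were chosen after seeing the data.

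Among 2596 values of single members under the alternatives, 64 passed the threshold where the reported value did not. No member was called as reported, so that no call was there to be lost or turned. 276 values changed sign without a call, and signs of such values were not read as directions. Requiring every array to reach its own lys signal removed Hmox1 and Srxn1. Averaging all probe sets of a gene changed no member, each having 1. A fit on the arrays compared alone gave values within a vessel or a stage only, and the t-test gave none for the interaction. Genes left out as dim were given no level.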
